A study of Mus musculus with 10 samples.

Results

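Nos2 codes for inducible nitric oxide synthase, the enzyme that cells switch on under inflammatory stimuli to make nitric oxide from arginine. Its RNA was followed here together with that of 8 genes that make, spend or protect arginine or supply the enzyme's cofactor: Nos3, Arg1, Arg2, Ass1, Asl, Gch1, Ddah1 and Ddah2. These 9 genes, of 46509 rows in each table of all genes, were found by symbol. They were picked with earlier results of these data in view, in particular the level of Nos2 in Wnt3a-treated cells, so those values are given as a description.

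RNA was sequenced from proximal tubule cells of the mouse kidney that had been conditionally immortalized, with a single library in each of 10 groups. They derive from mixed-strain mice, N2 FVB with a floxed TbRII allele crossed with the Immorto-mouse, whose conditional immortalizing gene is kept on with interferon gamma. The protocol given for all libraries has transfection at 33 °C and later culture at 37 °C without interferon gamma, although 4 libraries list no siRNA. Interferon gamma is itself a textbook inducer of Nos2, and the time that passed after its removal is not given in the sources used here. Library 2 had Wnt3a at 20 ng/mL, and library 1 had the Wnt diluting buffer, both with no siRNA and no H2O2. Library 6 had 100 uM H2O2 and Wnt3a, and library 5 had H2O2 with no Wnt treatment entered, again with no siRNA. Library 4 had siRNA to FoxO1 and FoxO3 with Wnt3a, and library 3 had scramble siRNA with Wnt3a, both without H2O2. Library 8 (FoxO1 siRNA), library 9 (FoxO3 siRNA), library 10 (both siRNAs) and library 7 (scramble siRNA) all had H2O2 and Wnt3a. Wnt3a activates canonical Wnt signalling through beta-catenin, H2O2 was the oxidative stress, and FoxO1 and FoxO3 are forkhead transcription factors. With 1 library per group no difference below has a replicate check, no test between conditions was made, and the total count of each library is unknown.

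The check of the siRNA labels came first. Foxo1 had 3.66 FPKM with FoxO1 siRNA and 4.67 FPKM in library 10, against 7.92 to 7.95 FPKM with scramble siRNA (FPKM, fragments per kb of transcript and sequencing depth). Foxo3 had 19.9 FPKM in the library labelled FoxO3 siRNA, against 19.7 FPKM with scramble siRNA, so that label was not borne out by its target. Library 10 had 17.4 FPKM of Foxo3, or 88.1% of the scramble level, and library 8, which had no FoxO3 siRNA, had 17.7 FPKM, or 90.2%. The FoxO3 entry of library 10 was thus not borne out either, and it is called the library labelled with both siRNAs. Of 18 markers of the proximal tubule, 6 reached 1 FPKM, among them Lrp2 (the endocytic receptor megalin) and Aqp1 (a water channel). Aqp1 itself had 37.2 FPKM in the library labelled FoxO3 siRNA (log2 ratio 1.32, with 1 added to each FPKM) and 23.5 FPKM in library 10 (0.68), against 14.3 FPKM with scramble siRNA, and 18.1 FPKM with FoxO1 siRNA (0.33). The summed level of the 18 markers was 255, 275 and 252 FPKM in libraries 8, 9 and 10 and 260 FPKM in library 7. Other defining genes of the mature tubule, Slc34a1, Slc22a6, Slc22a8, Miox and Slc27a2, were listed at 0 or below 0.02 FPKM. Of 10 fibroblast markers 2 reached 1 FPKM, Fbln1 at 6.17 to 7.46 FPKM and Acta2 at 44.0 to 67.1 FPKM in libraries 7 to 10. Of 7 markers of distal nephron and collecting duct 0 reached 1 FPKM. Gapdh was listed at 0 in library 7, against 841 to 1033 FPKM in libraries 8 to 10, so a listed 0 in these tables may be a failed estimate.

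Arginine sits at a branch point. Ass1 (argininosuccinate synthase) and Asl (argininosuccinate lyase) make it from citrulline, a synthesis for which the proximal tubule is the main site in the body. Arginases (Arg1 in the cytosol, Arg2 in mitochondria) split it into urea and ornithine, and nitric oxide synthases (Nos2, and Nos3 of endothelium) turn it into nitric oxide and citrulline, which Ass1 and Asl can recycle. All nitric oxide synthases need tetrahydrobiopterin, whose rate-limiting enzyme is Gch1 (GTP cyclohydrolase). Ddah1 and Ddah2 belong to the family that breaks down methylated arginines, which are natural inhibitors of these synthases.

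On mm10, in the coordinates of the deposited tables, Nos2 (ENSMUSG00000020826) spans chr11:78920787-78960254 on the plus strand and Gch1 (ENSMUSG00000037580) spans chr14:47153895-47189413 on the minus strand. Ass1 lies at chr2:31470207-31520672, Asl at chr5:130011258-130029247, Ddah1 at chr3:145758675-145894277 and Ddah2 at chr17:35059035-35062095. Arg1 lies at chr10:24915208-24927470, Arg2 at chr12:79130777-79172667 and Nos3 at chr5:24364810-24392143. These are the spans of the deposited loci, which for Nos3 and Arg2 run past the GENCODE gene. In the GENCODE annotation 32.3% of the exonic bases of Nos3 (shared with Gm15587 and Atg9b) and 28.1% of those of Arg2 (shared with Gm48780 and Vti1b) also belong to genes on the opposite strand. Whether the libraries kept strand is not given in the sources used here, so reads of those neighbours cannot be told apart from reads of Nos3 and Arg2. The other 7 genes share no exonic base with another gene.

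RefSeq promoter windows on GRCm38.p6, 250 bases before to 50 after the start, matched 4 of the 9 genes (Ass1, Ddah1, Gch1 and Ddah2). Those of 3 genes are shown. Gch1 is the cofactor gene with values under Wnt3a. Ddah2 is the member that was lowest against scramble siRNA in all 3 siRNA libraries, by the ratios given below. Ass1 holds a match to the NF-kB pattern. The windows of Gch1, Ddah2 and Ass1 lie at chr14:47189364-47189663 (minus strand), chr17:35058785-35059084 (plus strand) and chr2:31470020-31470319 (plus strand). Each runs 5′ to 3′ with motif matches in capitals.
Gch1: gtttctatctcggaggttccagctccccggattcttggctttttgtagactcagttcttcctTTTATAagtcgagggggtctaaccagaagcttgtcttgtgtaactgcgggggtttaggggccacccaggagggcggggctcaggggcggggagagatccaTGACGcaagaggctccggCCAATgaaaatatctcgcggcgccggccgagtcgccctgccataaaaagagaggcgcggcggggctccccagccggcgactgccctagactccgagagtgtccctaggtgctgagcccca
Ddah2: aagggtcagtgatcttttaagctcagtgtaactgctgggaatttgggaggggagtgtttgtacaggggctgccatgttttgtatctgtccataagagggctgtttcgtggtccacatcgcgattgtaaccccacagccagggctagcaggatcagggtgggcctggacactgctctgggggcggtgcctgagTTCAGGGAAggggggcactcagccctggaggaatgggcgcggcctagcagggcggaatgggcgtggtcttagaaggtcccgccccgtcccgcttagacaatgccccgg
Ass1: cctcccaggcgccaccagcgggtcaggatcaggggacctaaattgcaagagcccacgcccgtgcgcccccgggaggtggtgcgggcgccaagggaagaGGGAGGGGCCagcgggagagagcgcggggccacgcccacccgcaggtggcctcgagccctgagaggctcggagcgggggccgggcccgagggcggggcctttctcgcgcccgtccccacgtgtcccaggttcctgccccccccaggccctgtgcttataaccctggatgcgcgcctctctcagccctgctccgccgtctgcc

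Short patterns were searched on both strands of these windows. For TCF/LEF factors they were CTTTGAA and the variant CTTTGAT, and for FoxO factors GTAAACA. For NF-kB the pattern was GGGA followed, after 4 free bases, by CC. The C/EBP pattern was TTGCNNAA and the interferon-gamma-activated (GAS) pattern was TTCNNNGAA. The 3 general promoter elements were the CCAAT box, the TATA box as TATAAA, and the core of a cyclic AMP response element as TGACG. Gch1 held the CCAAT box 70 bases before its start. It held TGACG 88 bases before the start, and the TATA box, read on the opposite strand as TTTATA, 188 bases before it. Ddah2 held the GAS pattern 58 bases before its start, and Ass1 held the NF-kB pattern 152 bases before its start. No match overlapped another. Of 32851 mouse promoter windows, 37.4% held the CCAAT box, 20.8% the cyclic AMP element, 20.7% the NF-kB pattern, 13.6% the TATA box and 8.30% the GAS pattern. The FoxO pattern (3.65% of windows), the C/EBP pattern (10.8%) and the TCF/LEF patterns (5.14% and 3.73%) had no match in the 4 windows, and the Ddah1 window matched none of the patterns.

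Among the 3 members with values in libraries 1, 2, 5 and 6, Nos2 had the widest range of FPKM. In oxidatively stressed cells it had 9.94 FPKM with Wnt3a (library 6), against 0.00787 FPKM without Wnt3a (library 5). In cells without H2O2 it had 0.748 FPKM with Wnt3a (library 2), against 0.0148 FPKM with the diluting buffer (library 1). Nos2 was thus near absent in both libraries without Wnt3a and was present in both with it, and it crossed 1 FPKM where Wnt3a and H2O2 were combined. These values come from a list of 1852 genes that the authors selected for a log2 ratio above 0.5 between libraries 2 and 1. That direction is therefore fixed by the selection, while the pair under H2O2 was not used in it.

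As log2 ratios of FPKM with 1 added to each value, the Wnt3a ratio of Nos2 was 3.44 under H2O2 (library 6 over 5) and 0.78 without H2O2 (library 2 over 1). The difference of these ratios was 2.66, which ranked 3 among the 582 genes of the list that reached 1 FPKM in either pair. Above it were Saa3 and Gm23823. In the H2O2 pair alone Nos2 ranked 11 of 522 genes, below the chemokine gene Cxcl5, Lcn2, Cxcl1 and others. Among libraries 1, 2, 5 and 6, Nos2 reached 1 FPKM in library 6 only. It was picked with its level in Wnt3a-treated cells in view, so both ranks are a description. Without the added 1, the ratio was 50.5-fold between libraries 2 and 1 and 1262-fold between libraries 6 and 5. The size of these folds is poorly fixed, since it rests on divisors of 0.0148 and 0.00787 FPKM and no fragment counts are given for a counting error.

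**Figure D1:**
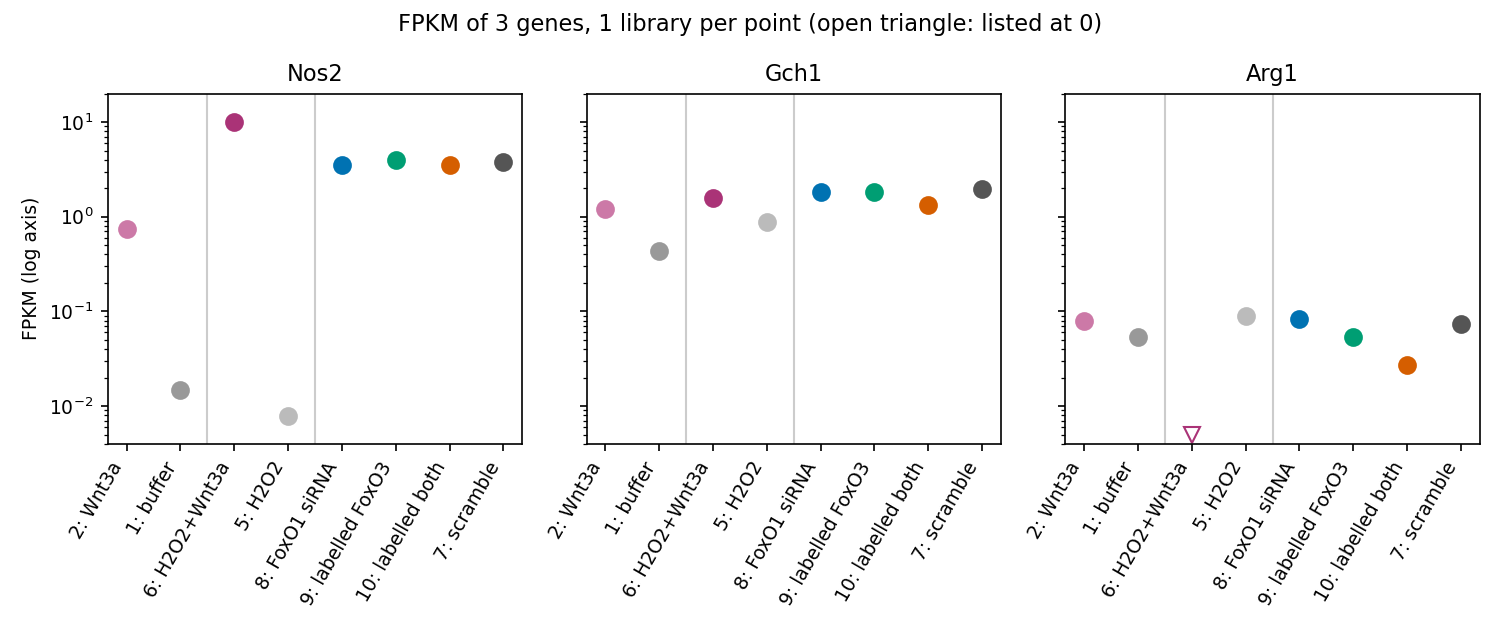
FPKM of Nos2, Gch1 and Arg1 (log axis) in the 8 libraries with values, 1 point per library, with an open triangle for a value listed at 0. Vertical lines part tables that were scaled separately. Nos2 stands at 0.748 FPKM in library 2 against 0.0148 FPKM in library 1, and at 9.94 FPKM in library 6 against 0.00787 FPKM in library 5, while libraries 7 to 10 sit between 3.48 and 3.94 FPKM.

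Gch1, which sets the supply of tetrahydrobiopterin, was the other member with measured values in this list. It had 1.21 FPKM with Wnt3a, against 0.438 FPKM with buffer, a log2 ratio of 0.62 and a plain ratio of 2.75-fold. Under H2O2 it had 1.59 FPKM with Wnt3a, against 0.885 FPKM without, a log2 ratio of 0.46 and a plain ratio of 1.80-fold. Both Wnt3a libraries were higher than their partner, by much less than for Nos2, and without H2O2 that direction is fixed by the selection. Its ratio under H2O2 ranked 221 of 522 genes, its ratio without H2O2 ranked 207 of 502, and the difference of the ratios, -0.16, ranked 256 of 582.

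Arg1, the arginase of liver and of alternatively activated macrophages, was at trace level throughout. It had 0.0801 FPKM with Wnt3a and 0.0544 FPKM with buffer, and under H2O2 it was listed at 0 with Wnt3a and had 0.0898 FPKM without. In the libraries without Wnt3a, Arg1 and Nos2 were both below 0.1 FPKM. With Wnt3a alone Gch1 (1.21 FPKM) exceeded Nos2 (0.748 FPKM), and with Wnt3a and H2O2 the order was reversed, at 1.59 FPKM for Gch1 and 9.94 FPKM for Nos2. The other 6 genes, Nos3, Arg2, Ass1, Asl, Ddah1 and Ddah2, are not in the list, and their values in libraries 1, 2, 5 and 6 were not analysed here. None of the 9 is in the second list, of 1637 genes selected on libraries 3, 4, 7 and 10, so values of libraries 3 and 4 were not analysed either.

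A gene counted below as raised or lowered if it reached 1 FPKM in at least 1 library of a pair and its log2 ratio passed 0.58 either way. In the H2O2 pair 1 of the 2 members that reached 1 FPKM was raised (Nos2), where 37.0% of the list's 522 such genes were. In the pair without H2O2 the 1 member that reached 1 FPKM, Gch1, was raised, where 48.2% of 502 were. That share follows from how the list was made. In each pair the members counted reached 1 FPKM only in the library with Wnt3a, so these counts are a description.

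Genes known for induction along with Nos2 were in the same list. Of 20 such inflammatory genes 13 were listed, each selected for a higher level in library 2 than in library 1. The rest of the 20 have no values here. In the H2O2 pair 12 of the 13 rose with Wnt3a, where 37.0% of the list's 522 measured genes did. Their median log2 ratio was 2.59, against 0.33 over all 522 genes. These 20 genes were chosen with earlier results of these data known, so this excess is a description only. Cxcl5 had 365 FPKM with Wnt3a, against 1.32 FPKM without (7.30). Lcn2, the iron-siderophore-binding injury marker, had 157 FPKM with Wnt3a, against 0.803 FPKM without (6.45), and Cxcl1, a neutrophil chemokine, had a ratio of 5.08. C3, the central complement component, had a ratio of 4.00. Saa3, an acute phase protein, had 15.1 FPKM with Wnt3a, against 0.105 FPKM without (3.86). Without H2O2, Saa3 had 0.402 FPKM with Wnt3a and 0.0788 FPKM with buffer, so it shared with Nos2 a low level unless Wnt3a and H2O2 were both present. Ptgs2 (cyclooxygenase-2) was the listed gene that did not pass the size rule under H2O2, with 4.19 FPKM with Wnt3a and 3.27 FPKM without. Lcn2, C3, Saa3 and the chemokine gene Cxcl2 were under 1 FPKM with H2O2 alone, so they counted as measured in that pair only through library 6. In the pair without H2O2, where the selection fixed the direction, 10 of the 12 listed genes that reached 1 FPKM passed the size rule. Of all 502 genes 48.2% did, and the medians were 1.45 and 0.56. The largest were Lcn2 (5.58), Cxcl5 (5.11), Cxcl1 (3.31) and the monocyte chemokine Ccl2 (2.41).

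**Figure D2:**
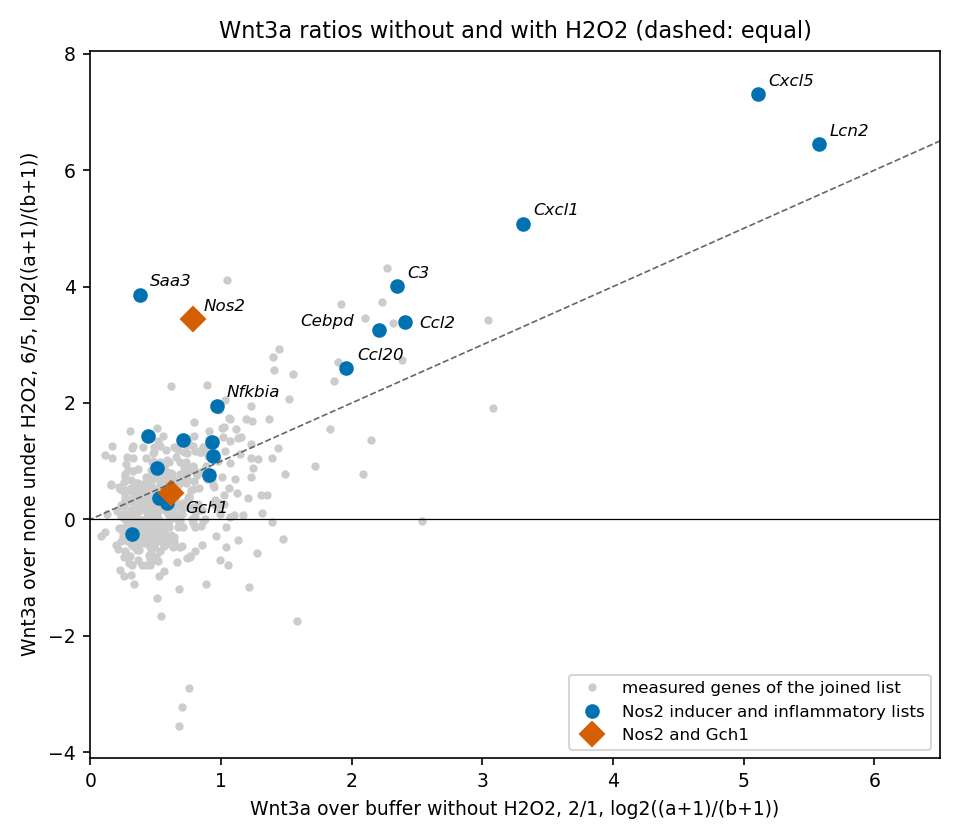
Each point is a gene of the authors' selected list that reached 1 FPKM in either pair, with the log2 Wnt3a ratio without H2O2 (2/1) on the horizontal axis and under H2O2 (6/5) on the vertical axis. Points at 0 or below on the horizontal axis are absent by selection. Nos2 (0.78, 3.44) and Saa3 (0.38, 3.86) stand far above the dashed line of equal ratios, while Gch1 (0.62, 0.46) lies just below it.

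Of 23 genes that carry or control NF-kB, interferon and cytokine signals to Nos2, 5 were listed, each higher in library 2 than in 1 by selection. In the H2O2 pair 3 of the 5 rose with Wnt3a, where 37.0% of the list's 522 measured genes did. The same 3 passed the size rule without H2O2, where 48.2% of 502 did. These 23 genes were also chosen with earlier results of these data known. Cebpd, a C/EBP transcription factor, had 55.6 FPKM with Wnt3a and H2O2, against 4.96 FPKM with H2O2 alone, a log2 ratio of 3.25. Nfkbia, the NF-kB inhibitor that NF-kB itself induces, had 58.6 FPKM with Wnt3a, against 14.4 FPKM without (1.96), and Nfkbiz, a nuclear NF-kB cofactor, had 80.6 FPKM, against 30.7 FPKM (1.37). Without H2O2 these ratios were 2.21, 0.97 and 0.71. Jak2 (0.37) and Irf8 (-0.26) did not pass the size rule under H2O2, and neither did so without H2O2 (0.53 and 0.32). Nos1ap, an adaptor that binds neuronal nitric oxide synthase, rose with Wnt3a under H2O2, with 5.81 FPKM against 1.32 FPKM (1.55). Without H2O2, where the selection fixed the direction, it had 3.50 FPKM against 0.262 FPKM (1.84). Glul (glutamine synthetase) had 3.17 FPKM with Wnt3a and 3.39 FPKM without under H2O2, and 4.31 FPKM with Wnt3a and 2.60 FPKM with buffer in the other pair (-0.08 and 0.56). The arginine transporter Slc7a3, the amino acid transporter Slc38a3 and the polyamine gene Amd2 were listed at under 0.4 FPKM in all 4 libraries.

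Markers of macrophages, the classical source of Nos2, were given the same look. Of 14 such markers, 3 were in the list of libraries 1, 2, 5 and 6. Their summed level was 0.773 FPKM with Wnt3a and H2O2 and 1.11 FPKM with H2O2 alone, and 0.384 FPKM with Wnt3a and 0.163 FPKM with buffer. Ptprc, which all leukocytes carry, had 0.0362 FPKM with Wnt3a and 0.0418 FPKM without under H2O2, and 0.0919 FPKM with Wnt3a and 0.0125 FPKM with buffer. Most of the sum under H2O2 was Itgam, with 0.698 FPKM with Wnt3a and 1.07 FPKM without. Markers of other cell types that are in this list were higher with Wnt3a in the pair without H2O2, as the selection requires. The same holds for the macrophage markers above. The endothelial receptor Kdr had 2.20 FPKM with Wnt3a, against 0.959 FPKM with buffer (0.71), and 0.353 and 0.118 FPKM under H2O2. The smooth muscle and myofibroblast gene Acta2 had 97.8 FPKM with Wnt3a, against 64.6 FPKM with buffer (0.59), and 30.2 and 26.6 FPKM under H2O2 (0.18). Of the endothelial and fibroblast lists 2 genes each were listed, with sums of 2.30 against 0.969 FPKM and 98.3 against 64.8 FPKM without H2O2, and 0.488 against 0.184 FPKM and 30.4 against 27.0 FPKM under H2O2. The part of these cell types in the level of Nos2 was not tested. In libraries 7 to 10, Ptprc was at 0.0124 to 0.0387 FPKM and Adgre1, Marco, Mrc1, S100a8 and S100a9 were listed at 0, while Cd68 (5.28 to 6.20 FPKM), Csf1r (1.23 to 2.22 FPKM) and Cd14 (19.9 to 27.7 FPKM) reached 1 FPKM. In these bulk libraries, fewer cells that make a transcript and less of it in each cell cannot be told apart.

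With H2O2, Wnt3a and an siRNA, Nos2 was present at a similar level whichever siRNA was used. It had 3.50 FPKM with FoxO1 siRNA, 3.94 FPKM in the library labelled FoxO3 siRNA and 3.48 FPKM in the library labelled with both siRNAs, against 3.76 to 3.77 FPKM with scramble siRNA. The range for library 7 comes from 3 tables, each scaled on its own, that all set a library against it. The log2 ratios were -0.08, 0.05 and -0.09, so the level was 92.9%, 105% and 92.1% of that with scramble siRNA. Of the 12006, 12045 and 12062 genes that reached 1 FPKM, 53.4%, 77.2% and 52.2% had a larger absolute ratio than Nos2 in these comparisons. In the authors' deposited table the p-values for Nos2 were 0.652, 0.816 and 0.625, each for a pair of single libraries. Scramble-transfected library 7 and library 6, which had no siRNA, shared H2O2 and Wnt3a, and their Nos2 levels of 3.77 and 9.94 FPKM come from tables scaled separately.

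**Figure D3:**
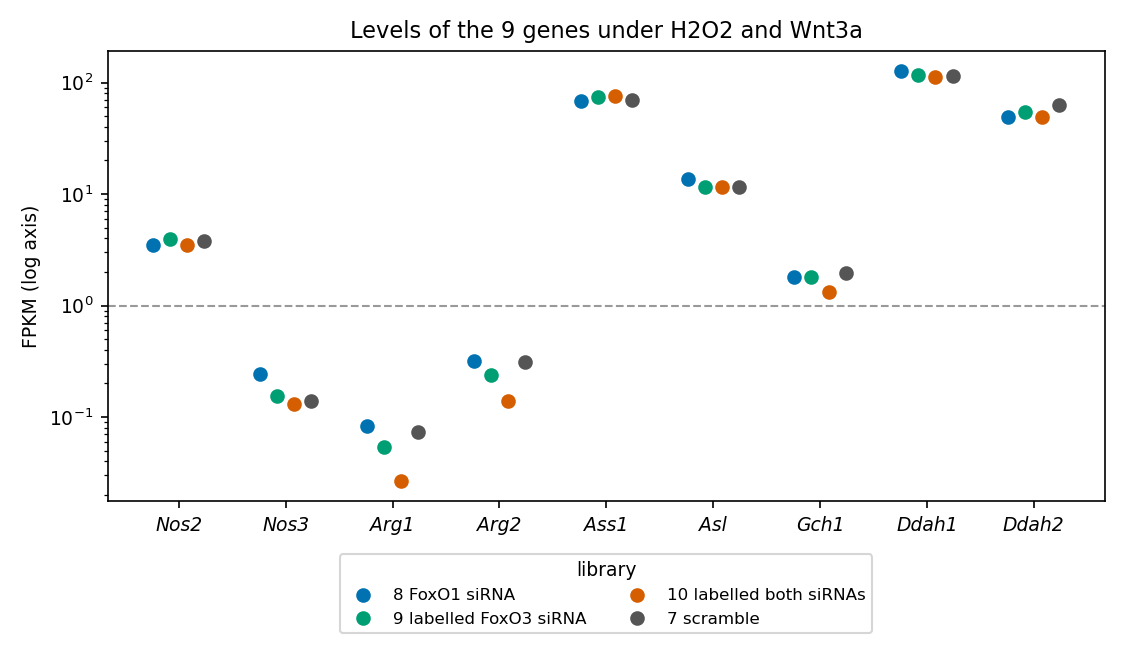
FPKM (log axis) of the 9 genes with H2O2 and Wnt3a in libraries 8, 9, 10 and 7, 1 point per library, with a dashed line at 1 FPKM. Ddah1, Ass1 and Ddah2 lie between 48.9 and 126 FPKM, Nos2 and Gch1 between 1.33 and 3.94 FPKM, and Arg2, Nos3 and Arg1 below 0.33 FPKM.

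Set in order of FPKM, a measure per transcript length, the genes ran Ddah1, Ass1, Ddah2, Asl, Nos2, Gch1, Arg2, Nos3 and Arg1, and this order held in each of libraries 7 to 10. Between neighbours in that order the ranges over the 4 libraries overlapped for Arg2 (0.138 to 0.321 FPKM) and Nos3 (0.130 to 0.246 FPKM) and for no other pair. Transcripts of the enzymes that make arginine and of both Ddah genes were thus more abundant than those of either nitric oxide synthase or either arginase.

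Among 6 members that reached 1 FPKM, 0 passed the size rule with FoxO1 siRNA, 0 in the library labelled FoxO3 siRNA and 0 in the library labelled with both siRNAs. Over all genes 2.68%, 4.53% and 2.96% did. The authors' deposited table tested these 6 genes in each comparison, 18 tests with a lowest p-value of 0.0838 and a lowest q-value of 0.999. The median log2 ratios of the 6 genes were -0.05, 0.02 and -0.07, beside medians over all genes of -0.01, -0.02 and -0.02. These comparisons share library 7, so their values are given side by side only.

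**Figure D4:**
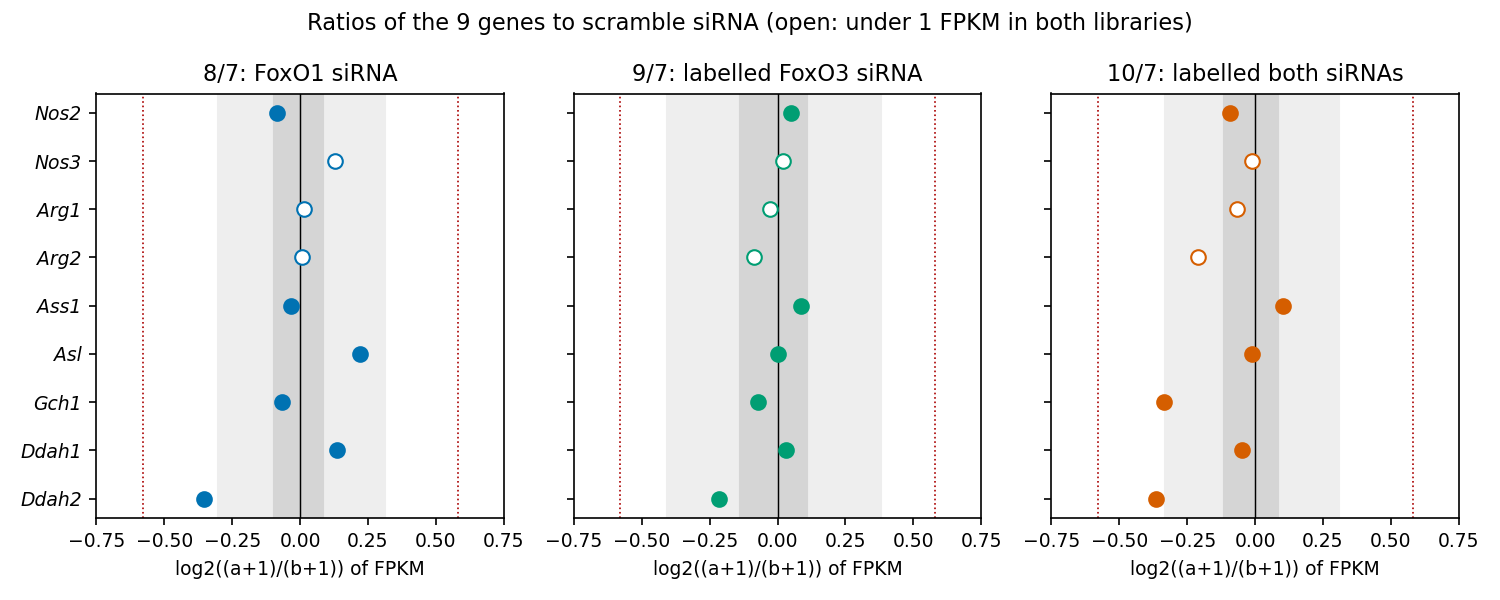
Log2 ratios of the 9 genes over scramble siRNA (FPKM with 1 added), with open points for genes under 1 FPKM in both libraries. The dark band runs between the quartiles of all measured genes and the light band between their percentiles 5 and 95, and dotted lines mark 0.58 either way. Every point lies inside the dotted lines, and Ddah2 (-0.35, -0.21 and -0.36) is the lowest in each panel.

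By the log2 ratio used here, Ddah2 was the member lowest against scramble siRNA in all 3 libraries. It had 49.1 FPKM with FoxO1 siRNA, 54.3 FPKM in the library labelled FoxO3 siRNA and 48.9 FPKM in the library labelled with both siRNAs, against 63.0 to 63.3 FPKM with scramble siRNA. The log2 ratios of -0.35, -0.21 and -0.36 did not pass the size rule. The first and the last lie below the lowest 5% of all genes in their comparison, which ended at -0.30 and -0.33, and the second does not (-0.41). Its p-values in the authors' deposited table were 0.0838, 0.377 and 0.0981. All 3 ratios have library 7 as their divisor. With nothing added to FPKM, Ddah2 was not the lowest member in the library labelled with both siRNAs. Gch1 had -0.55 there and Ddah2 -0.37. Arg1 and Arg2, both under 1 FPKM, were then also lower than Ddah2 there and in the library labelled FoxO3 siRNA.

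Ddah1, the better characterised dimethylarginine hydrolase, did not share this order. It had 126 FPKM with FoxO1 siRNA, 118 FPKM in the library labelled FoxO3 siRNA and 112 FPKM in the library labelled with both siRNAs, against 115 FPKM with scramble siRNA (0.14, 0.03 and -0.05). Libraries 8 and 9 lay above the scramble library and library 10 below it.

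Gch1 had 1.81 FPKM with FoxO1 siRNA, 1.80 FPKM in the library labelled FoxO3 siRNA and 1.33 FPKM in the library labelled with both siRNAs, against 1.94 to 1.95 FPKM with scramble siRNA. The lowest 5% of all genes ended at -0.30, -0.41 and -0.33, and Gch1 lay just below that in the library labelled with both siRNAs only. Its ratios were -0.07, -0.07 and -0.34. The last equals 68.5% of the scramble level and did not pass the size rule, with a p-value of 0.168 in the authors' deposited table.

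The enzymes that make arginine varied little. Ass1 had 68.4 FPKM with FoxO1 siRNA, 74.6 FPKM in the library labelled FoxO3 siRNA and 75.6 FPKM in the library labelled with both siRNAs, against 70.0 to 70.2 FPKM with scramble siRNA (-0.03, 0.09 and 0.10). Asl had 13.7, 11.6 and 11.5 FPKM in the same order of siRNA libraries, against 11.6 FPKM with scramble siRNA (0.22, 0.00 and -0.01). Only library 8 stood off for Asl, at 118% of the scramble level.

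Nos3 and both arginases stayed under 1 FPKM in libraries 7 to 10, so no direction is read from their ratios. Nos3 had 0.246 FPKM with FoxO1 siRNA, 0.155 FPKM in the library labelled FoxO3 siRNA and 0.130 FPKM in the library labelled with both siRNAs, against 0.140 FPKM with scramble siRNA. Arg2, the usual arginase of kidney, had 0.321, 0.239 and 0.138 FPKM in those siRNA libraries, against 0.314 to 0.315 FPKM with scramble siRNA. Arg1 had 0.0838, 0.0539 and 0.0269 FPKM, against 0.0739 to 0.0742 FPKM. The authors' deposited table marks these 3 genes as not tested. Of 9 endothelial markers, where Nos3 is the usual synthase, 0 reached 1 FPKM, with summed levels of 1.52, 1.31 and 1.27 FPKM in the siRNA libraries and 1.47 to 1.48 FPKM with scramble siRNA.

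The genes around the members were counted by pathway in the same 3 comparisons. Of 8 measured carriers of arginine, ornithine and other amino acids, 0 changed with FoxO1 siRNA, 2 were lower in the library labelled FoxO3 siRNA and 0 changed in the library labelled with both siRNAs (medians -0.01, -0.24 and -0.14). Over all genes 2.30% were lower and 2.23% higher in the library labelled FoxO3 siRNA. Slc7a5, the large neutral amino acid carrier LAT1, had 42.8 FPKM in the library labelled FoxO3 siRNA, against 72.4 FPKM with scramble siRNA (-0.74). Slc7a7, the light chain of the basolateral arginine exporter, had 0.635 FPKM, against 1.54 FPKM (-0.64). Neither Slc7a5 nor Slc7a7 had a low p-value or q-value in the authors' deposited table. Slc3a2, the heavy chain that Slc7a5 and Slc7a7 share, had 85.7 FPKM, against 116 FPKM, and did not pass the size rule (-0.43). With a minimum of 5 FPKM, Slc7a7 is not counted and 1 carrier was lower. The main arginine importer Slc7a1 had 72.3, 60.1 and 62.7 FPKM in the siRNA libraries, against 70.8 to 71.1 FPKM with scramble siRNA. With FoxO1 siRNA the largest ratios were those of Slc7a6 (-0.15) and the mitochondrial carrier Slc25a29 (-0.09), and in the library labelled with both siRNAs those of Slc7a7 (-0.22) and Slc7a1 (-0.18).

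Of 6 measured genes of the urea cycle and of other uses of arginine, none passed the size rule in any of the 3 comparisons (medians 0.02, 0.04 and 0.18). Gatm, which starts creatine synthesis from arginine, had 48.3, 49.7 and 53.5 FPKM in the siRNA libraries, against 47.4 to 47.6 FPKM with scramble siRNA. Gamt, the second creatine enzyme, had ratios of -0.32, -0.48 and -0.15, and Azin2 had -0.09, 0.29 and 0.23. Otc, Cps1, Nags and Agmat, of which the first 3 are the mitochondrial urea cycle genes of liver, were listed at 0 in libraries 7 to 10.

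Polyamine genes, which use the ornithine that arginases release, numbered 11 measured, and none passed the size rule (medians 0.01, 0.06 and -0.02). Odc1, the rate-limiting decarboxylase, had 193, 185 and 190 FPKM in the siRNA libraries, against 191 to 192 FPKM with scramble siRNA. Sat1, which acetylates polyamines for export, had 50.2, 56.3 and 53.9 FPKM, against 42.6 to 42.8 FPKM (0.23, 0.39 and 0.33). Smox had -0.27 with FoxO1 siRNA, Sat2 had 0.50 in the library labelled FoxO3 siRNA and Oaz2 had -0.45 in the library labelled with both siRNAs.

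In the ornithine and proline list, 2 genes were lower in the library labelled FoxO3 siRNA, of 6 measured there, and none changed in the other comparisons, of 7 measured in each (medians 0.03, -0.13 and -0.06). Aldh18a1, which makes the precursor of proline and ornithine from glutamate, had 27.6 FPKM in the library labelled FoxO3 siRNA, against 42.9 FPKM with scramble siRNA (-0.62). Pycr1, the last enzyme of proline synthesis, had 7.52 FPKM, against 11.9 FPKM (-0.59). Their p-values in the authors' deposited table were 0.0129 and 0.0317, with q-values of 0.999. With ratios centred on the median of all genes, 1 of the 2 passed. Prodh had 0.23 and Aldh18a1 -0.08 with FoxO1 siRNA, and in the library labelled with both siRNAs Pycrl had -0.19 and Aldh4a1 -0.09.

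**Figure D5:**
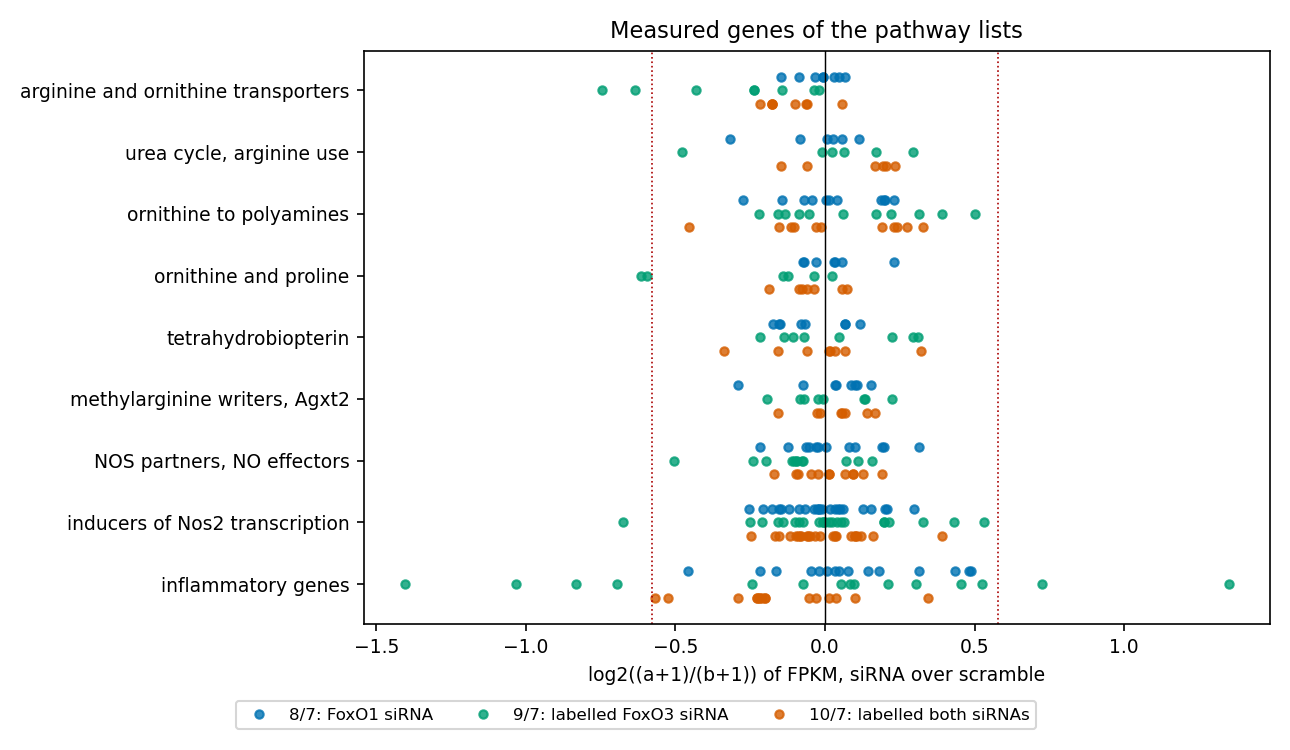
Log2 ratios over scramble siRNA (FPKM with 1 added) of the measured genes of 9 pathway lists, 1 point per gene and comparison, with dotted lines at 0.58 either way. Points beyond the lines all belong to the library labelled FoxO3 siRNA, in the transporter, proline, inducer and inflammatory lists.

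All 8 tetrahydrobiopterin genes, Gch1 included, were measured and none passed the size rule (medians -0.07, -0.01 and 0.02). Gchfr, the feedback regulator that binds the Gch1 enzyme, had 6.19, 8.80 and 6.18 FPKM in the siRNA libraries, against 6.97 to 7.00 FPKM with scramble siRNA. Besides Gch1 the largest ratios were those of Qdpr (-0.18) and Pts (-0.15) with FoxO1 siRNA, Spr (0.31) and Gchfr (0.29) in the library labelled FoxO3 siRNA, and Pcbd2 (0.32) in the library labelled with both siRNAs. Each of these was several times more abundant than Gch1, whose FPKM was the lowest of the list in libraries 7 to 10. Of 8 measured enzymes that methylate arginine in proteins, the source of the methylated arginines that Ddah enzymes clear, none passed the size rule (medians 0.06, -0.02 and 0.06). Prmt3 had ratios of -0.29, -0.19 and -0.16, Prmt5 had 0.16 with FoxO1 siRNA, Prmt6 had 0.22 in the library labelled FoxO3 siRNA and Prmt7 had 0.17 in the library labelled with both siRNAs.

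Among 12 measured partners of nitric oxide synthases and effectors of nitric oxide, none passed the size rule (medians -0.01, -0.10 and 0.01). Nos1ap had 6.72, 4.70 and 6.19 FPKM in the siRNA libraries, against 7.07 to 7.10 FPKM with scramble siRNA (-0.07, -0.51 and -0.17). Cav1, which binds and restrains Nos3, had 0.31 with FoxO1 siRNA, Nosip had -0.24 in the library labelled FoxO3 siRNA and Calm3 had 0.19 in the library labelled with both siRNAs. Nos1, the neuronal synthase, stayed under 0.03 FPKM. The subunits of soluble guanylate cyclase, the receptor of nitric oxide, were low, with Gucy1a2 at 0.359 to 0.664 FPKM and Gucy1a3, Gucy1b2 and Gucy1b3 listed at 0.

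All 23 genes of signalling to Nos2, called inducers here though they include the NF-kB inhibitor Nfkbia, were measured. Of all measured genes, 2.30% were lower and 2.23% higher in the library labelled FoxO3 siRNA. Among the inducers 1 was lower there, with none changed in the other comparisons (medians -0.02, -0.000817 and -0.03). That gene was Nfkbiz, with 69.2 FPKM, against 111 FPKM with scramble siRNA (-0.68) and a q-value of 0.587 in the authors' deposited table. Cebpd had 0.30 and Hif1a -0.25 with FoxO1 siRNA, and Tlr4 had 0.39 and Cebpb -0.25 in the library labelled with both siRNAs. Of the inflammatory genes, 15 were measured with FoxO1 siRNA, 15 in the library labelled FoxO3 siRNA and 16 in the library labelled with both siRNAs. None of them passed with FoxO1 siRNA or in the library labelled with both siRNAs (medians 0.05 and -0.21). In the library labelled FoxO3 siRNA 2 were higher and 4 lower (median 0.08), where 2.23% and 2.30% of all genes were. Saa3 had 12.7 FPKM there, against 4.39 FPKM with scramble siRNA (1.35), and Cxcl5 was the other gene higher (0.73). Ccl5 had 3.75 FPKM, against 11.6 FPKM (-1.40), Cxcl10 had 49.6 FPKM, against 103 FPKM (-1.03), Mmp9 had a ratio of -0.83 and Vcam1 of -0.70. Nos2 itself differed by 0.05 in that library. With FoxO1 siRNA Ccl20 (0.49) and Ccl5 (0.48) had the largest ratios, and in the library labelled with both siRNAs Ccl5 (-0.57) and Mmp9 (-0.52). In the library labelled with both siRNAs 3 of these genes passed when 0.1 FPKM was added and 4 with nothing added. The macrophage markers summed to 31.6, 35.4 and 34.5 FPKM in the siRNA libraries and to 28.1 to 28.2 FPKM with scramble siRNA, most of it Cd14, and their part in these ratios was not tested.

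The 5 genes whose siRNA ratios were most like those of Nos2 were Yaf2, Micall2, Plcd3, Ctdp1 and Kifc5b, at distances of 0.0148 to 0.0175 over the 3 log2 ratios. The measure ran over 10401 genes with 1 FPKM or more in libraries 7 to 10. Since Nos2 hardly differed between these libraries, 3533 genes lay within 0.2 of it.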

How the data were processed

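The authors deposited FPKM values for all genes in libraries 8, 9 and 10 against 7, and for the 2 lists of selected genes; their tables of all genes also hold the p-value and q-value of Cuffdiff, per the file headers. Per the submitters' processing notes TopHat2, Cufflinks, Cuffdiff and mm10 were used; no source used here gives settings, versions or the annotation. Library 7 differed between tables by factors of 1.00217 and 1.00334, so ratios were formed within a table.

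The log2 ratio of library a over b was taken as log2((a + 1)/(b + 1)); the 1 FPKM added understates the change of weak genes. Measured meant 1 FPKM or more in either library. With 1 library per group no test was made, and the deposited p-values compare libraries, not conditions. The members and gene lists were chosen with earlier results of these data known.

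Named genes were the 9 members, Foxo1, Foxo3 and, per list and comparison, up to 4 measured genes past 0.58 or else the 2 with the largest absolute ratio; further genes are named for their role in a pathway, chosen with values seen. Some genes that this rule selects are not reported here. Likeness to Nos2 was Euclidean distance over 3 ratios, among genes with 1 symbol and the authors' status OK, leaving out small RNA, Gm and Rik symbols. Depth is unknown, so no counting interval is given. Alternatives were a pseudocount of 0.1 or none, centring, scaling by the 75th percentile, minima of 5 FPKM or none, and status OK only. Python 3.11.15, pandas 2.3.3 and scipy 1.17.1 were used. The ratio and the size rule were tested on simulated data with known folds and no noise, for genes at 5 FPKM or more.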

Additional observations from a re-analysis of the deposited data

Results flagged for a closer look

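Glul (glutamine synthetase) had Wnt3a ratios of opposite sign in the 2 settings, neither past 0.58. Its log2 ratio was -0.0771 under H2O2, with 3.17 FPKM with Wnt3a and 3.39 FPKM without, and 0.56 without H2O2, with 4.31 FPKM with Wnt3a and 2.60 FPKM with buffer. Irf8, an interferon-induced transcription factor, also had ratios of opposite sign, neither past 0.58, at -0.26 under H2O2, with 3.12 FPKM with Wnt3a and 3.93 FPKM without, and 0.32 without H2O2, with 1.36 FPKM with Wnt3a and 0.893 FPKM with buffer. Each setting holds 1 library per group, the positive ratio without H2O2 was fixed by the authors' selection of the list, and the difference between the settings was not tested.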

How the results depend on the processing

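The count of members past 0.58 stayed at 0 in all 3 siRNA comparisons under every alternative, and no ratio past 0.58 changed sign. In all 12 values near 0 changed sign, 10 list medians and 2 member ratios (Nos3 and Asl in the library labelled with both siRNAs, 0.00271 and 0.00468 when centred). The Nos2 ratio with Wnt3a depended on the pseudocount. Without H2O2 it was 2.88 with 0.1 FPKM added and 5.66 with none, and under H2O2 it was 6.54 and 10.30. Of 519 recomputed values 39 moved, a ratio or median by more than the spread over genes or a count by over 1.5 times, 36 of them with a smaller pseudocount or none. Among members in the siRNA libraries the moved values belonged to Nos3, Arg1 and Arg2, all under 1 FPKM, and to Gch1 in the library labelled with both siRNAs (-0.51 and -0.55). At these values Gch1 lay below Ddah2 in that library. Counts of list genes past 0.58 in the library labelled FoxO3 siRNA became 1 for the carriers at a 5 FPKM minimum and 1 for the proline list when centred, against 2 for each. With a smaller pseudocount or none they became 2 for the inducers, against 1, and 1 for the urea cycle, polyamine and synthase partner lists, against 0. The inflammatory list went to 1 with FoxO1 siRNA and to 3 or 4 in the library labelled with both siRNAs, against 0. With 0.1 FPKM added, 2 of the 5 genes most like Nos2 were the same. No replicate could be left out with 1 library per group. No paired analysis was possible because each group holds 1 library. Depth is unknown, and no direction is read for Nos3, Arg1 and Arg2, which stayed under 1 FPKM.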
